A study of Mus musculus with 4 samples.

Results

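Monocytes with high Arg1 and Ccl24 were 101 of the 6054 esophageal CD45+ cells, 1.67% of all cells and 9.72% of the 1039 cells that passed a monocyte gate. They were chosen by UMIs (unique molecular identifiers, each standing for 1 captured RNA molecule) in the cell itself. The gate asked for summed UMIs of Ly6c2, Vcan, Chil3 and F13a1 of at least 3, Csf1r of at least 1, Lyz2 of at least 5, summed C1qa, C1qb and C1qc under 10 and Cd209a under 2. Of the gated cells, those with summed Cxcl10, Ifit2 and Rsad2 under 5 and summed Arg1 and Ccl24 of at least 5 were kept and are called Arg1/Ccl24 monocytes here. The remaining gated cells were 494 other monocytes, below both thresholds, and 444 interferon monocytes, with summed Cxcl10, Ifit2 and Rsad2 of at least 5. Another 1014 cells, C1q macrophages, had Csf1r of at least 1, Lyz2 of at least 5, summed C1q UMIs of at least 10 and Cd209a under 2. The levels of these 15 genes follow from the rule and are given without a test.

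Classical monocytes leave the blood for inflamed tissue and there take on macrophage programs that depend on local signals. Under the type 2 cytokines IL-4 and IL-13 they can turn on genes of alternative activation. Arg1 encodes arginase-1, which splits arginine into urea and ornithine, the precursor of polyamines and proline, and so competes with nitric oxide synthesis for arginine. Ccl24 encodes eotaxin-2, a chemokine that acts on the receptor CCR3 of eosinophils, the cells that accumulate in eosinophilic esophagitis. Chil3 encodes the chitinase-like protein Ym1, Tgm2 a transglutaminase that crosslinks proteins, and Hmox1 heme oxygenase-1, which breaks down heme into biliverdin, carbon monoxide and iron.

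The cells came from 10 mice, 5 wild type and 5 Il20rb knock-out (IL20RB-/-), in a model of eosinophilic esophagitis. Mice of both genotypes had the ear treated daily for 14 days with MC903 (calcipotriol, a vitamin D analog that provokes a type 2 skin response) and ovalbumin (OVA). They then drank water with OVA for 4 days from day 14, received 50 mg OVA by gavage on days 15 and 17, and were killed on day 18, so no unchallenged animal enters any comparison. The labels used here give no strain, age or sex. Each animal's esophageal cells carried a hashtag antibody of their own; the tagged suspensions were pooled, sorted for viable CD45+ cells and divided between 2 wells of a droplet instrument. The animal is therefore the replicate. Il20rb encodes a subunit shared by receptors of the IL-20 cytokine family, and it gave 1 UMI in the Arg1/Ccl24 monocytes (in wild-type animal 4) and 0 in the other monocytes, so these cells give no check of the genotype labels. The table holds 1805883 to 5666994 UMIs and 271 to 897 cells per animal, and 2 cell barcodes occurred in both wells, 0 of them in Arg1/Ccl24 monocytes.

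The Arg1/Ccl24 monocytes were spread unevenly over the animals. Wild-type animals 1 to 5 held 26, 17, 6, 8 and 4 of them, and knock-out animals 1 to 5 held 28, 1, 2, 6 and 3. Wild-type animals 1 and 2 and knock-out animal 1 thus supplied 71 of the 101 cells. The wells held 53 and 48. As a share of an animal's cells, they made up 2.90, 2.67, 0.742, 1.60 and 0.692% in wild-type animals 1 to 5 and 3.19, 0.256, 0.738, 1.44 and 0.442% in knock-out animals 1 to 5. The highest and the lowest share both stood in knock-out animals, and the genotypes overlapped over the whole wild-type range. The means were 1.72 ± 1.04% and 1.21 ± 1.19% (SD, n = 5 animals per genotype, two-sided exact permutation p = 0.484, adjusted p = 0.484 over 3 shares). Within the monocyte gate the share was 15.7, 37.0, 8.45, 10.7 and 3.42% in the 5 wild-type animals, and it was 10.6, 2.50, 10.0, 8.33 and 1.79% in the knock-outs. Wild-type animal 2 stood above all others, and without it the difference of the genotype means, knock-out minus wild type, went from -8.39 to -2.90 percentage points. With all animals the means were 15.0 ± 13.02% and 6.65 ± 4.20% (SD, n = 5 per genotype, exact permutation p = 0.159, adjusted p = 0.476). The share of gated monocytes themselves was 13.9 ± 5.78% among cells of wild-type animals and 18.0 ± 9.55% among those of knock-outs (SD, n = 5 per genotype, exact permutation p = 0.429, adjusted p = 0.484). None of the 3 shares differed beyond the spread between animals, where the smallest p that 252 splits of 10 animals allow is 0.00794.

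**Figure D1:**
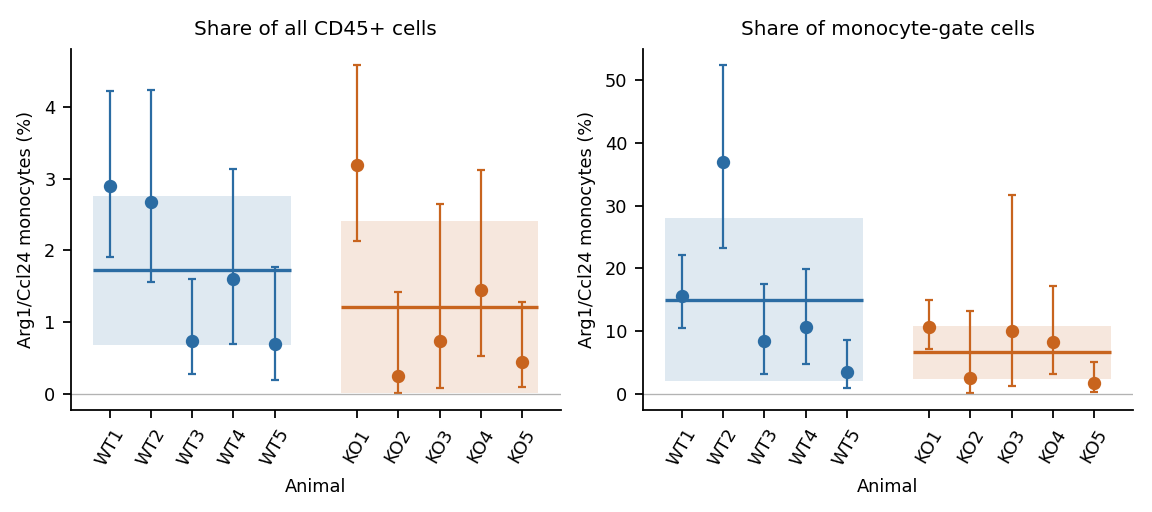
Arg1/Ccl24 monocytes per animal as a percentage of all CD45+ cells (left) and of monocyte-gate cells (right); points are animals (WT, wild type; KO, Il20rb knock-out), bars exact 95% binomial intervals for counting error, lines genotype means and bands 1 SD. Genotypes overlap in both panels, and wild-type animal 2 stands highest in the gate at 37.0%.

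Arg1 and Ccl24 were often, but not always, in the same cell. Arg1 lies at chr10:24915207-24927470 and Ccl24 at chr5:135569935-135573123, whole genes in the mouse build GRCm38.p6 (mm10). UMIs were counted at the 3′ end, so transcript length does not enter these counts. Per cell, Arg1 had a median of 10 UMIs (highest 126) and Ccl24 a median of 8 (highest 243). Both genes were detected in 59 of the 101 cells and reached 5 UMIs each in 32. In 23 cells Arg1 reached 5 UMIs with Ccl24 at 0, and in 19 cells Ccl24 reached 5 with Arg1 at 0. The balance differed between animals: in wild-type animal 1, 19 of 26 cells held more Ccl24 than Arg1 UMIs, whereas in knock-out animal 1, 18 of 28 held more Arg1. All 6 cells of knock-out animal 4 held more Arg1. Summed over cells, the Arg1 level was 2398, 2602, 1317 and 419 CPM in wild-type animals 1 to 4 and 3238 and 3063 CPM in knock-out animals 1 and 4 (CPM, the gene's UMIs divided by all UMIs of these cells in that animal and scaled to 1000000). For Ccl24 the levels were 6259.8, 2384, 1756 and 838 CPM and 1977 and 1122 CPM in the same order, highest in wild-type animal 1. These 6 animals held at least 5 of the cells each; the remaining 4 held 1 to 4.

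**Figure D2:**
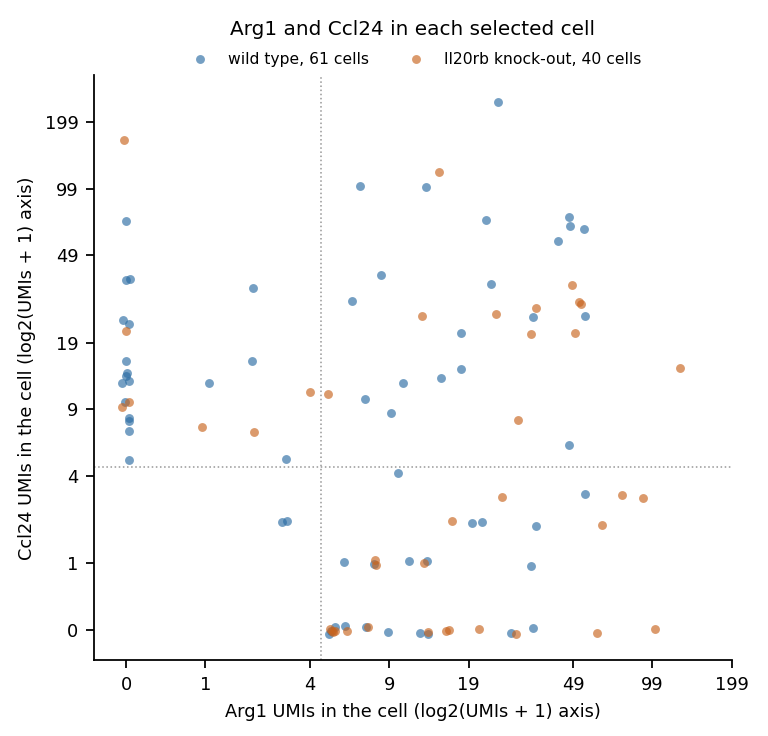
UMIs of Arg1 (x) and Ccl24 (y) in each of the 101 selected cells, on log2(UMIs + 1) axes with slight jitter; dotted lines lie between 4 and 5 UMIs. Of the cells, 32 lie above both lines, and cells on the left or lower edge have 0 UMIs of that gene.

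Some cells lay close to the threshold on both sides. In the gate without interferon genes, 398 cells held 0 UMIs of Arg1 and Ccl24 together, 58 held 1, 22 held 2, 10 held 3 and 6 held 4, just outside the rule. Just inside, 10 cells held 5, 2 held 6, 4 held 7, 4 held 8 and 6 held 9. Beside these, 2.59% of 116 B-marked cells, a type not known to make either gene, had an Arg1 UMI and 0.862% a Ccl24 UMI at a median depth of 2984.5 UMIs, and 1 reached the summed threshold of 5. All 57 of their Ccl24 UMIs lay in 1 cell and all 30 of their Arg1 UMIs in 3 cells, and the source of these UMIs was not tested. Their levels were 52.5 CPM for Arg1 and 99.8 for Ccl24, against 2471 and 2583 CPM in the Arg1/Ccl24 monocytes (median depth 7174 UMIs) and 23.4 and 28.7 CPM in the other monocytes (median 5777.5). T-marked cells had an Arg1 UMI in 20.8% and a Ccl24 UMI in 1.38% of 289 cells (median 3196 UMIs). Of these T-marked cells, 15 (5.19%) reached the summed threshold of 5. Their levels were 231 CPM for Arg1 and 61.2 CPM for Ccl24, and the source of these UMIs was not tested either. The threshold was also met in 28.4% of C1q macrophages and in 34.7% of interferon monocytes. Among gated cells without interferon genes it was met in 17.0%, and the share was higher in the interferon monocytes in 9 of 10 animals. Of the 10, wild-type animal 3 and knock-out animals 2 and 3 held only 3, 2 and 1 interferon monocytes. The condition on interferon genes removed 154 cells that also passed the threshold. With those 154 cells counted in, the share of all cells was 3.22 ± 2.36% over the wild-type animals and 3.95 ± 3.64% over the knock-outs (SD, n = 5 per genotype, exact permutation p = 0.722), which turns the order of the genotype means.

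The label's markers were not equally strong. Tgm2 measured 1106, 184, 79.8 and 109 CPM in wild-type animals 1 to 4 and 351 and 607 CPM in knock-out animals 1 and 4 in the Arg1/Ccl24 monocytes. In the other monocytes of those animals it measured 266, 14.9, 74.8 and 72.8 CPM and 112 and 144 CPM, lower in each of the 6 animals, although the classes overlapped across animals. Hmox1 measured 1803, 2317, 1177 and 202 CPM in wild-type animals 1 to 4 and 254 and 1183 CPM in knock-out animals 1 and 4, and 264, 104, 66.5 and 301.6 CPM and 202 and 103 CPM in the other monocytes. It was higher in 5 of the 6 animals but by very different amounts, and it did not pass the test described below (log2 fold 2.29 ± 1.18 SE, edgeR adjusted p = 0.604). Chil3, which the gate reads, measured 1765, 4685, 1058 and 1117 CPM in wild-type animals 1 to 4 and 813 and 425 CPM in knock-out animals 1 and 4, and 1665, 1338, 776 and 829 CPM and 848 and 596 CPM in the other monocytes. It was higher in 4 of the 6 animals and present in both classes throughout. Of the monocyte genes the rule did not read, Ccr2, the receptor for CCL2, measured 862 CPM over all Arg1/Ccl24 monocytes and 1008 CPM over the other monocytes. The 8 listed T cell markers, 9 mast cell and basophil markers and 5 erythroid markers were all at 0 in the Arg1/Ccl24 monocytes, as were 6 of 8 eosinophil markers. No cell among them held 2 UMIs of T cell, B cell, epithelial or type 1 dendritic cell genes together, against 3 of the other monocytes. Neutrophil markers summed to 699 CPM against 286 CPM in the other monocytes (60.7 to 3832 CPM over the 6 animals), with Ltf and Camp at 0; their part in the results was not tested.

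Compared with the other monocytes of the same animals, the Arg1/Ccl24 monocytes had more RNA of chemokines, of cathepsins and lipid-handling proteins, of ferritin and of several glycolysis and hypoxia genes. Wild-type animals 1 and 2 and knock-out animal 1 held at least 10 cells of each class and entered the test. Of 2936 genes tested, 89 were higher (3.03% of the genes tested) and 58 lower (1.98%), together 5.01%, at an adjusted p under 0.05 by edgeR's quasi-likelihood test with the animal as a block; DESeq2 called 34 higher and 1 lower. Of the 89 higher genes, 40 were higher in all 6 animals with at least 5 cells, and 66 in at least 5; of the 58 lower genes, 32 were lower in all 6. The 6 animals include the 3 of the test. Because cells were picked by 2 genes, these folds describe what goes with that choice in the same cells. A level summed over a class cannot tell more RNA per cell from more cells with the gene.

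Of the 12 chemokine genes tested, 8 were higher and 0 lower (median log2 fold 1.62, against -0.03 over all genes tested). Of these, Ccl2 (chr11:82035577-82037452), Ccl7 (chr11:82045712-82047525), Ccl12 (chr11:82101845-82103399) and Ccl8 (chr11:82115185-82116799) lie in 1 cluster on chromosome 11, as do Ccl9 and Ccl6 farther along. Ccl7 encodes MCP-3, which attracts monocytes and, through CCR3, eosinophils. It measured 3031, 2008, 539 and 1427 CPM in wild-type animals 1 to 4 and 2863 and 1031 CPM in knock-out animals 1 and 4, against 1007, 178, 224 and 562 CPM and 633 and 857 CPM in the other monocytes. Ccl7 was higher in 6 of the 6 animals, while the classes overlapped across animals (log2 fold 2.24 ± 0.20 SE, edgeR adjusted p = 1.48e-22). Ccl6, a CC chemokine of mouse myeloid cells, measured 2749, 3321, 3911 and 2917 CPM in wild-type animals 1 to 4 and 4134 and 4155 CPM in knock-out animals 1 and 4. In the other monocytes Ccl6 measured 1392, 1382, 1815 and 2143 CPM and 1142 and 1926 CPM, and the classes did not overlap. Its neighbour Ccl9 behaved alike, with 1133 to 1957 CPM in the 6 animals, median 1633, against 613 to 864 CPM, median 767, in the other monocytes. Over all 10 animals with such cells, Ccl7 was higher in 9, but Ccl6 and Ccl9 in only 7 each. Ccl2, the main ligand of CCR2, rose by less in the test (log2 fold 0.82 ± 0.17 SE, edgeR adjusted p = 8.87e-05), and wild-type animals 3 and 4 had less of it in the Arg1/Ccl24 monocytes, 698 against 1693 CPM and 2017 against 2347 CPM. Ccl12, Cxcl1 and Cxcl3 also passed, the latter pair encoding neutrophil attractants. Over the 6 animals, however, Ccl12 was higher in only 3, Cxcl1 in 4 and Cxcl3 in 3. Cxcl3 came almost wholly from wild-type animals 1 and 2 (780.1 and 477 CPM, against 6.95 in knock-out animal 1), and 1 cell gave 55.2% of its UMIs.

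Ccl8, a chemokine that attracts Th2 cells through CCR8, had the largest fold but rested on few cells. In the 3 animals of the test the Arg1/Ccl24 monocytes held 142 UMIs of Ccl8 and the other monocytes 1, a ratio of 249 per UMI sequenced with a 95% counting interval of 44.1 to 9922. Only 5 of 71 cells had a Ccl8 UMI, and 1 cell in knock-out animal 1 gave 78.2% of them. Outside the test, the other monocytes of knock-out animal 2 measured 316 CPM of Ccl8. Ccl8 and Cxcl3 were the 2 of the 89 higher genes with over 50% of their UMIs from 1 cell; the median over the 89 genes was 10.3%, and 60 genes had a UMI in at least 50% of the 71 cells.

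**Figure D3:**
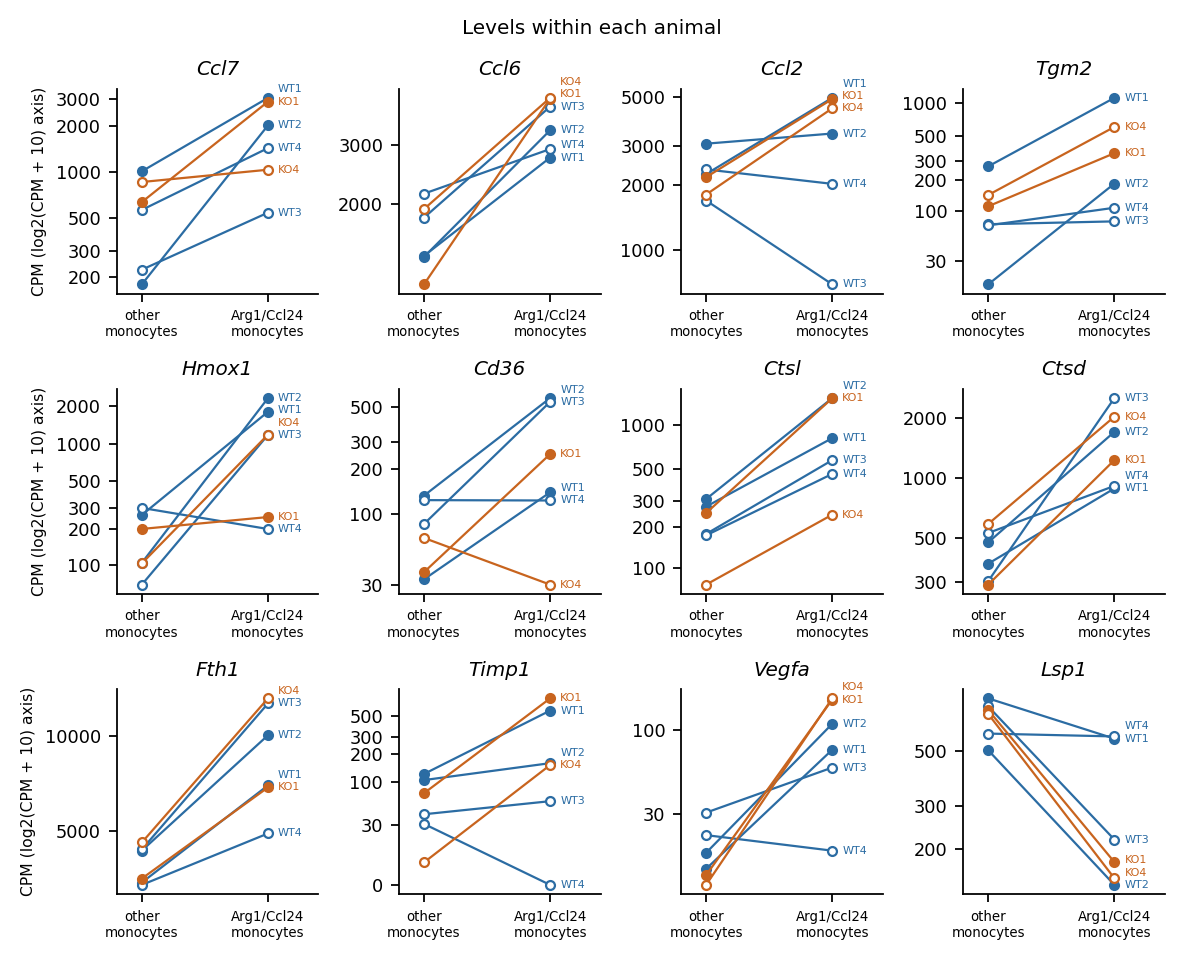
Levels (CPM on a log2(CPM + 10) axis) of 12 genes in the other monocytes and the Arg1/Ccl24 monocytes of the same animal, joined by a line; blue, wild type; orange, Il20rb knock-out; filled, animals in the test; open, animals with 5 to 9 selected cells. Ccl7, Ccl6, Ctsl, Ctsd and Fth1 are higher in the selected cells of all 6 animals and Lsp1 is lower, while Hmox1, Cd36 and Ccl2 go both ways.

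Of 18 tested genes of lipid handling and the lysosome, 8 were higher and 0 lower (list median 0.63). The cathepsins are lysosomal proteases. Ctsl measured 818, 1531, 579 and 465 CPM in wild-type animals 1 to 4 and 1529 and 243 CPM in knock-out animals 1 and 4, against 276, 312, 177 and 173 CPM and 249 and 75.4 CPM. It was higher in all 10 animals with such cells (log2 fold 2.13 ± 0.24 SE, edgeR adjusted p = 2.3e-16). Ctsd and Ctsb were likewise higher in all 10 animals, Ctsd with 889 to 2514 CPM in the 6 animals, median 1470, against 289.6 to 589 CPM, median 423, in the other monocytes; both pairs of ranges are separate. Lgmn, a lysosomal endopeptidase outside the list, measured 552 to 1146 CPM in the 6 animals, median 852, against 166 to 356 CPM, median 222, in the other monocytes. Cd36, a scavenger receptor for oxidised lipids, measured 141, 569, 539 and 124 CPM in wild-type animals 1 to 4 and 250.1 and 30.3 CPM in knock-out animals 1 and 4, against 33.5, 134, 85.9 and 125 CPM and 38.2 and 68.5 CPM. It was thus higher in only 4 of the 6 animals, although it passed in the 3 of the test (log2 fold 2.29 ± 0.35 SE, edgeR adjusted p = 8.02e-09). Abca1, which exports cholesterol, Plin2, which coats lipid droplets, Cd63, a late endosomal tetraspanin, and Trem2, a lipid-sensing receptor, were the other members called. Trem2 measured 115, 243, 319 and 372 CPM in wild-type animals 1 to 4 and 319.6 and 182 CPM in knock-out animals 1 and 4, higher in 6 of the 6 animals. Gpnmb, Fabp5 and Apoe did not pass: Fabp5, a fatty acid carrier, ranged from 19.96 CPM in wild-type animal 3 to 2373 CPM in knock-out animal 1.

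Iron storage and antioxidant genes were higher in part. Of 11 tested genes of the heme, iron and NRF2 list, 4 passed, all higher (list median 1.04), and 8 of the 11 folds were above 0. Nfe2l2, which encodes NRF2, was higher in 0 of the 6 animals (204 against 280 CPM over all cells of each class). Gsr, the glutathione reductase gene of the monocyte identity list, was lower (log2 fold -1.20, edgeR adjusted p = 0.00646). Fth1 and Ftl1 encode the heavy and light chains of ferritin. Fth1 measured 6989, 10081, 12712 and 4919 CPM in wild-type animals 1 to 4 and 6886 and 13193 CPM in knock-out animals 1 and 4, against 3436, 4339, 4377 and 3377 CPM and 3537 and 4605 CPM. These levels did not overlap between the classes (log2 fold 1.04 ± 0.15 SE, edgeR adjusted p = 3.52e-09). Ftl1 was higher in all 10 animals, and so was Prdx1, a peroxide-reducing enzyme; both ferritin genes have near-identical pseudogene copies between which counting may split reads. Blvrb, a biliverdin reductase, passed with 1 cell giving 32.2% of its UMIs. Gclm, of glutathione synthesis, had a log2 fold of 1.55 ± 0.56 (SE, edgeR adjusted p = 0.0843), and Nqo1 was at 0 in both classes.

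Of 18 tested glycolysis and hypoxia genes, 7 were higher and 0 lower (list median 0.91, 17 of 18 folds above 0). The 7 were the glycolytic enzymes Pfkl, Tpi1 and Pgam1, the growth factor Vegfa, the lipid droplet protein Hilpda, the cytokine Mif and the oxygen-regulated transcription factor Hif1a. Tpi1, triosephosphate isomerase, measured 269, 301.2, 219.5 and 403 CPM in wild-type animals 1 to 4 and 375 and 334 CPM in knock-out animals 1 and 4, against 83.8, 134, 139 and 177 CPM and 110.0 and 158 CPM, and the classes did not overlap. Vegfa measured 76.7, 109, 59.9 and 15.5 CPM in wild-type animals 1 to 4 and 149 and 152 CPM in knock-out animals 1 and 4, against 10.5, 14.9, 30.5 and 20.8 CPM and 8.98 and 6.85 CPM. Wild-type animal 4 was the exception for Vegfa (log2 fold 3.36 ± 0.51 SE, edgeR adjusted p = 9.68e-09). Hif1a measured 709.7, 653, 439 and 202 CPM in wild-type animals 1 to 4 and 410.0 and 394 CPM in knock-out animals 1 and 4, against 270.1, 178, 202 and 218 CPM and 233 and 267 CPM, again with wild-type animal 4 apart. Hilpda passed but was higher in only 3 of the 6 animals.

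The promoters of these 7 genes are shown because the genes moved together in the test. The motif searched was ACGTG, the core of the element that hypoxia-inducible factors bind, on both strands, in the 250 bases before each start that RefSeq gives (build GRCm38.p6). Of the 7 genes, 4 held it before at least 1 start (Hilpda, Hif1a, Vegfa and Pgam1), and Tpi1, Mif and Pfkl did not. Hilpda and Vegfa each have another tabled start, and the window before it held no match. For Vegfa that other window is chr17:46032378-46032627. The Vegfa window with the motif lies downstream of that start, inside the gene. Over the whole table it stood before at least 1 start of 18.5% of 27025 genes, or in 16.6% of 32851 windows. A match of letters is a description and no binding was measured. The 4 windows with the motif follow, 5′ to 3′ on the gene's strand and with the motif in capitals: Hilpda at chr6:29272376-29272625 (plus strand, 43 bases before the start), Hif1a at chr12:73907617-73907866 (plus strand, 3 matches, of which 2 overlap in a palindrome), Vegfa at chr17:46025164-46025413 (minus strand, 211 bases before the start) and Pgam1 at chr19:41911621-41911870 (plus strand, 114 bases before the start).
Hilpda: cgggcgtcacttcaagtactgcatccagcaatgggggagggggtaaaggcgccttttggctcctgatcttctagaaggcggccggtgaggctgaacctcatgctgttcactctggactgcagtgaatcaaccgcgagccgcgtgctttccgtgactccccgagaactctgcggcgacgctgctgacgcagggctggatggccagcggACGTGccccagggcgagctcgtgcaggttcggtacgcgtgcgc
Hif1a: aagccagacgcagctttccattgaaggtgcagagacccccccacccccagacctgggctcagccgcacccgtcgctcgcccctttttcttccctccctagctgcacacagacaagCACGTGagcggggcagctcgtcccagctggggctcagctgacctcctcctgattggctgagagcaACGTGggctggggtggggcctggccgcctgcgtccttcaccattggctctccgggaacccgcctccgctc
Vegfa: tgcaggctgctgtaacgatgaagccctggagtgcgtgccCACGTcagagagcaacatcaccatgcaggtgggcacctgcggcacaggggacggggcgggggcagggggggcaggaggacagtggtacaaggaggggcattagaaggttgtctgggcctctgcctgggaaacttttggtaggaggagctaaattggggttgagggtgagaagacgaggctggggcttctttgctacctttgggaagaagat
Pgam1: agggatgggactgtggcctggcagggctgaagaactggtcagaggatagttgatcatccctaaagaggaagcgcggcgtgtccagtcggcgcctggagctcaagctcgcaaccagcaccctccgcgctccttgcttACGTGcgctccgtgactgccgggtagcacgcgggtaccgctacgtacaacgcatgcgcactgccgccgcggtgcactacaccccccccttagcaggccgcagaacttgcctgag

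Alternative activation beyond the genes of the rule was mixed. Of 13 tested genes, 4 were higher (Tgm2, Cd36, Clec10a and Ccl8) and 0 lower, with a list median of 1.09. Clec10a, a galactose-type lectin, measured 147, 50.2, 19.96 and 62.1 CPM in wild-type animals 1 to 4 and 59.1 and 0 CPM in knock-out animals 1 and 4. Mrc1, the mannose receptor CD206, measured 921, 870.1, 199.6 and 838 CPM in wild-type animals 1 to 4 and 559 and 60.7 CPM in knock-out animals 1 and 4, against 41.9, 253, 260.4 and 264 CPM and 198 and 281 CPM. It was high in 4 of the 6 animals and did not pass (log2 fold 2.48 ± 0.62 SE, edgeR adjusted p = 0.0992). Retnla, encoding RELM-alpha and a classic gene of the same program, measured 4929.9, 418, 19.96 and 2141 CPM in wild-type animals 1 to 4 and 20.8 and 0 CPM in knock-out animals 1 and 4. In the other monocytes Retnla measured 1254, 4458, 972 and 2084 CPM and 373 and 2488 CPM (log2 fold -1.75 ± 2.33 SE, edgeR adjusted p = 0.863). It was higher in the Arg1/Ccl24 monocytes of only 2 of the 6 animals, wild-type animals 1 and 4. In each of these, 1 cell held nearly all of its UMIs, 766 of 771 and 134 of 138. Il4ra, the shared receptor chain for IL-4 and IL-13, did not pass (log2 fold 0.71 ± 0.32 SE, edgeR adjusted p = 0.221), and Ccl17 and Ccl22 gave 3 and 1 UMIs in all Arg1/Ccl24 monocytes.

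In arginine and polyamine metabolism 1 of 7 tested genes was higher, Odc1, the ornithine decarboxylase that starts polyamine synthesis from the product of arginase. It measured 192, 117, 19.96 and 62.1 CPM in wild-type animals 1 to 4 and 177 and 91.0 CPM in knock-out animals 1 and 4, against 77.5, 104, 27.7 and 62.4 CPM and 38.2 and 13.7 CPM. It was higher in 4 of the 6 animals. Slc7a2, an arginine transporter, was too low for the test; it measured 49.7 CPM over all Arg1/Ccl24 monocytes (39 UMIs) and 5.34 CPM over the other monocytes. Nos2, the inducible nitric oxide synthase, gave 0 UMIs in the Arg1/Ccl24 monocytes and 1 in the other monocytes.

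Of the matrix, coagulation and wound repair list, 2 of 11 tested genes were higher and 0 lower (list median 0.49). Timp1, an inhibitor of matrix metalloproteinases, measured 563, 159, 59.9 and 0 CPM in wild-type animals 1 to 4 and 750.4 and 152 CPM in knock-out animals 1 and 4, against 121, 104, 41.6 and 31.2 CPM and 74.1 and 6.85 CPM. It was higher in 5 of the 6 animals, and 1 cell gave 40.2% of its UMIs in the 3 animals of the test. Tgfbi, a matrix adaptor protein, was the other. Spp1, osteopontin, measured 499, 510.3, 1956 and 155 CPM in wild-type animals 1 to 4 and 4582 and 1062 CPM in knock-out animals 1 and 4, against 176, 104, 116 and 76.3 CPM and 213 and 103 CPM. It was higher in the Arg1/Ccl24 monocytes of each of the 6 animals but did not pass (log2 fold 2.86 ± 0.97 SE, edgeR adjusted p = 0.422). Fn1, fibronectin, did not pass either (log2 fold 0.49 ± 0.18 SE, edgeR adjusted p = 0.0874).

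Of 11 tested monocyte identity genes 3 were lower, among them Ifitm6 and Gsr, and 0 higher. Lsp1, a leukocyte actin-binding protein, measured 563, 142, 219.5 and 574 CPM in wild-type animals 1 to 4 and 177 and 152 CPM in knock-out animals 1 and 4, against 814, 505, 756 and 589 CPM and 732 and 706 CPM, lower in all 10 animals. Ptprc, which encodes CD45 itself, measured 259 to 486 CPM in the 6 animals, median 336, against 507 to 839 CPM, median 719, in the other monocytes, also lower in all 10 animals (log2 fold -1.17 ± 0.25 SE, edgeR adjusted p = 0.000149). Other named genes that were lower were the IL-17 receptor chain Il17ra, the orphan receptor gene Gpr141, the transcription factor gene Klf13, the inhibitory receptor genes Cd300a and Klra2, and Tmem176b, Gm9733, Rnd3, Fam107b, Add3, Gngt2 and Napsa. The higher named genes not yet given were Dab2, Sdc4, Mt1 and Bcl2a1b. Dab2, an endocytic adaptor, measured 179.6 to 684 CPM in the 6 animals, median 445, against 67.3 to 243 CPM, median 121, in the other monocytes. It was higher in 8 of all 10 animals. Sdc4 encodes a heparan sulfate proteoglycan and Mt1 a metallothionein. Bcl2a1b is a survival gene with near-identical copies (Bcl2a1a, Bcl2a1d) between which reads may be split.

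The other fixed lists held few calls. The interferon response (14 tested), MHC class II presentation (8 tested) and cell cycle (2 tested) lists had 0 genes in either direction; the first is limited by the rule, which removed cells with interferon genes. H2-Aa, an MHC class II chain, measured 895, 803, 299 and 946 CPM in wild-type animals 1 to 4 and 167 and 1001 CPM in knock-out animals 1 and 4, against 193, 1486, 801 and 676 CPM and 1008 and 1782 CPM, with wild-type animal 1 higher and knock-out animal 1 lower in the Arg1/Ccl24 monocytes. Among 13 inflammatory genes, Ptgs2, the prostaglandin synthase COX-2, was higher and Clec4e, the lectin Mincle, lower, while Il1b and Tnf did not pass. Over the 6 animals Ptgs2 was higher in only 3, with a median of 40.3 CPM against 43.1 CPM in the other monocytes. Macrophage identity had 1 of 7 higher, the transcription factor gene Maf, which with Hif1a made up the 2 of 17 transcription factors called. Of 11 cytokine receptors, Ifngr1, a chain of the interferon-gamma receptor, was lower with 100.4 to 279 CPM in the 6 animals, median 159, against 218 to 579.6 CPM, median 296, in the other monocytes. Of 12 immune regulation genes Ptgs2 alone passed.

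**Figure D4:**
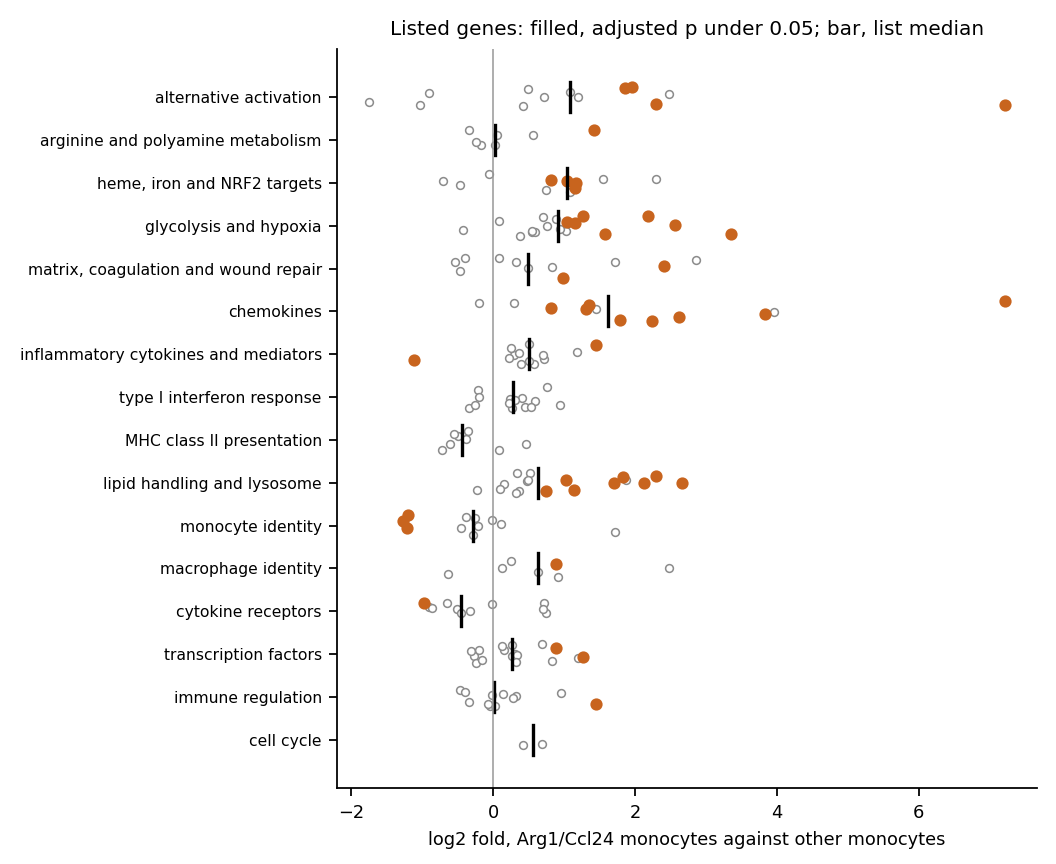
Log2 folds (x) of the tested genes of each fixed list (y) in Arg1/Ccl24 monocytes against other monocytes of the same animals; filled points have an adjusted p under 0.05, open points do not, and bars are list medians. Chemokines hold 8 filled points of 12, and lipid handling and lysosome 8 of 18; the point at 7.22 in 2 lists is Ccl8.

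These counts changed with the animals and cells used. Without knock-out animal 1, 0 genes passed in either direction by edgeR (135 higher and 77 lower at an unadjusted p under 0.05), and DESeq2 called 8 higher and 0 lower. All 80 higher and all 52 lower genes that still had a value kept their direction there. That fit reuses wild-type animals 1 and 2, which helped make the calls, so the kept direction is no separate support. Without wild-type animal 2, 65 were higher and 34 lower. Among cells of 5000 to 20000 UMIs, 20 were higher and 1 lower, and wells 1 and 2 alone gave 47 higher with 23 lower and 23 higher with 5 lower. Genes higher by edgeR, by DESeq2 and in the edgeR fit of all 6 animals numbered 22: Gatm, AA467197, Tgm2, Sdc4, Prdx1, Cd36, Pdia4, C3ar1, Tpi1, Ctsd, Bcl2a1b, Ccl9, Ccl6, Rhob, Hif1a, Lgmn, Ctsl, Ctsb, Dab2, Basp1, Fth1 and Rab3il1, named after their values were seen; Lsp1 was lower in all 3.

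Against the interferon monocytes of the same 3 animals, 31 of 2900 genes were higher (1.07%) and 142 lower (4.9%), together 5.97%, by edgeR's quasi-likelihood test. Most lower named genes belong to the interferon response, which the rule itself set: 11 of 15 tested genes of that list were lower and 0 higher. Lpl and Cd36, both of lipid uptake, were among the higher genes. Lpl, lipoprotein lipase, measured 249, 594 and 250.1 CPM in wild-type animals 1 and 2 and knock-out animal 1, against 59.5, 40.2 and 59.7 CPM in the interferon monocytes. Cd36 measured 141, 569 and 250.1 CPM in wild-type animals 1 and 2 and knock-out animal 1, against 59.5, 167 and 42.6 CPM in the interferon monocytes. Both were higher in each of the 3 animals (log2 fold 2.42 ± 0.32 and 1.90 ± 0.29 SE, edgeR adjusted p = 0.00104 and 0.00248); of 18 tested genes of lipid handling and the lysosome they were the 2 higher, and 1 was lower. Fn1 measured 1925, 2593 and 3339 CPM in wild-type animals 1 and 2 and knock-out animal 1, against 1277, 1373 and 1015 CPM in the interferon monocytes. Timp1, the regulator gene Id2, the tubulin genes Tubb5 and Tubb2a, the glycolytic genes Tpi1 and Pfkl, and Pdpn, Zfp36l1, Fam162a, Gatm, Batf3 and Agpat5 were the other named higher genes. Mrc1 and Clec10a were higher too, so that 4 of 13 alternative activation genes passed (with Fn1 and Cd36) and 1, Socs1, was lower.

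Chemokines split in this comparison. Ccl6 and Cxcl1 were higher in the Arg1/Ccl24 monocytes, and Ccl2, Ccl7, Ccl12 and Ccl3 were lower, out of 12 tested. Ccl12, a CCR2 ligand, measured 102, 201 and 521 CPM in wild-type animals 1 and 2 and knock-out animal 1, against 1122, 1547 and 1818 CPM in the interferon monocytes. Over all cells of each class Ccl7 measured 2306 CPM in the Arg1/Ccl24 monocytes, 4229 in the interferon monocytes and 724 in the other monocytes. Plac8 and Ms4a4c, genes of early monocytes, were lower, Plac8 with 2084, 719 and 1584 CPM in wild-type animals 1 and 2 and knock-out animal 1, against 4189, 2289.9 and 5158 CPM in the interferon monocytes. Other named lower genes outside the fixed interferon list were Ifi47, Ifi205, Isg20, Gbp5, Ifit3b (near-identical to Ifit3, so reads may be split) and Pnp, a purine phosphorylase. For Gbp5, with 1 UMI against 181, the ratio was 56.4 with a 95% counting interval of 9.99 to 2239. Without knock-out animal 1 the counts fell to 1 higher and 2 lower, without wild-type animal 2 to 5 higher and 39 lower, and without wild-type animal 1 they rose to 71 and 221.

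Against the C1q macrophages, 22 of 5193 genes were higher (0.424%) and 19 lower (0.366%), together 0.79%, by the same edgeR test. Tgm2 measured 1106, 184 and 351 CPM in wild-type animals 1 and 2 and knock-out animal 1, against 467, 40.7 and 192 CPM in the C1q macrophages, higher in all 3 (log2 fold 1.29 ± 0.23 SE, edgeR adjusted p = 0.000767). F10, the gene of coagulation factor X, measured 313, 234 and 97.3 CPM in wild-type animals 1 and 2 and knock-out animal 1, against 103, 50.5 and 54.8 CPM in the C1q macrophages. Vegfa measured 76.7, 109 and 149 CPM in wild-type animals 1 and 2 and knock-out animal 1, against 34.3, 36.5 and 30.5 CPM in the C1q macrophages. Hp and Gsr, haptoglobin and glutathione reductase of the monocyte list, were higher as well, with 0 of 12 in that list lower. The rule asked for monocyte genes in the Arg1/Ccl24 monocytes and not in the macrophages, so calls in that list are limited by the rule. The inflammatory genes Ptgs2, Osm and Cd14 and the transcription factor genes Hif1a and Nr4a1 were also higher. Mgst1, Dmkn, Dusp5, Gm9733, C3, Errfi1 and Tarm1 completed the named higher genes.

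Among the genes lower against the C1q macrophages, Apoe, apolipoprotein E, measured 377, 2033 and 1372 CPM in wild-type animals 1 and 2 and knock-out animal 1, against 1285, 5128 and 2190.3 CPM in the C1q macrophages (log2 fold -1.23 ± 0.19 SE, edgeR adjusted p = 0.00017). Ms4a7, Folr2 and Lyve1 made up 3 lower of 12 tested macrophage identity genes, with 0 higher. Calls in that list are limited by the rule too, since C1q UMIs split the 2 classes. The receptor genes Axl, which recognises dying cells, and Siglec1, which binds sialic acid, were lower too. Mmp12, the macrophage elastase, gave 2 UMIs against 179 in the macrophages, a ratio of 16.6 with a 95% counting interval of 4.53 to 138. Ccl5 gave 0 UMIs against 134, at least 8.28-fold lower with 3 counts over the group as the floor. Tmem176a, Tmem176b, Timp2, Mt2, Selenop, Pltp, Cd63 and Ifit3 were the other named lower genes; Ifit3 belongs to the interferon response, which the rule limits. Without wild-type animal 2 the test gave 8 higher and 22 lower genes, and without wild-type animal 1, 25 and 57. Arg1 and Ccl24 measured 850.2 and 552 CPM over all C1q macrophages, between the levels of the Arg1/Ccl24 and the other monocytes.

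The 101 cells were not uniform. Of them, 41 had Arg1 of at least 5 UMIs with Ccl24 below 5, 26 the reverse, 32 both, and 2 neither gene alone. Median depth was 7301, 6227.5 and 8092.5 UMIs in the first 3 groups. The groups were cut by the same UMIs as the rule, and cells of 1 animal are not replicates, so their levels are given without a test. Wild-type animals 1 and 2 and knock-out animal 1 held 7, 5 and 6 of the Ccl24 cells. Pooled over animals, Fth1 measured 9793 CPM in the Arg1 cells, 10004 in cells with both and 2799.8 in the Ccl24 cells. In wild-type animals 1 and 2 and knock-out animal 1 the Ccl24 cells were lowest for Fth1 in each animal, at 1859, 2802 and 2378 CPM against 4639, 7569 and 7786 CPM in the Arg1 cells. Apoe measured 2670 CPM in the Arg1 cells, 1586 in cells with both and 353 in the Ccl24 cells. It was also lowest in the Ccl24 cells of each of the 3 animals. In wild-type animal 1 the gap was small, at 135 CPM against 146 CPM in the Arg1 cells. Pf4, platelet factor 4, which some tissue macrophages make, measured 1715 CPM in the Arg1 cells, 1398 in cells with both and 365 in the Ccl24 cells; in knock-out animal 1 the Ccl24 cells had 0 CPM and the Arg1 cells 1242. Vegfa measured 148 CPM in the Arg1 cells, 109 in cells with both and 29.4 in the Ccl24 cells. Spp1 measured 2717 CPM in the Arg1 cells, 2755 in cells with both and 147 in the Ccl24 cells, but 1 cell gave 48.0% of the UMIs in the Arg1 cells and 1 cell 61.0% in the cells with both.

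By summed UMIs, the Ccl24 cells stood highest for several genes of MHC class II presentation. H2-DMa, which edits peptides on MHC class II, measured 228 CPM in the Arg1 cells, 147 in cells with both and 635 in the Ccl24 cells. In the 3 animals it measured 700.5, 396 and 438 CPM in the Ccl24 cells and 219, 81.1 and 125 CPM in the Arg1 cells, so the Ccl24 cells were higher in each. Cd74, the invariant chain, measured 2809 CPM in the Arg1 cells, 1781 in cells with both and 4294 in the Ccl24 cells, also highest in the Ccl24 cells of each of the 3 animals. The same held for H2-Aa and H2-Ab1, and for H2-Eb1 in wild-type animal 1 only. In knock-out animal 1, H2-Eb1 measured 41.7 CPM in the Ccl24 cells and 91.7 CPM in the cells with both. H2-Aa, H2-Ab1 and H2-Eb1 had a UMI in 12, 13 and 10 of the 26 Ccl24 cells, where 1 cell gave 21.4, 23.1 and 33.9% of the UMIs. In the 41 Arg1 cells the counts were 23, 22 and 23. H2-DMa and Cd74 had a UMI in 22 and 24 of the 26 Ccl24 cells and in 28 and 35 of the 41 Arg1 cells. Mrc1 measured 343 CPM in the Arg1 cells, 887 in cells with both and 818 in the Ccl24 cells. It was lowest in the Arg1 cells of each of the 3 animals. Ccl7 peaked in cells with both genes in wild-type animals 1 and 2 (4886 and 2868 CPM) and in knock-out animal 1 measured 3343 CPM there and 3359 in the Ccl24 cells. Retnla cannot be read from these groups: 94.1% of its UMIs in the Ccl24 cells came from 1 cell of wild-type animal 1, and it was detected in 6 of the 26.

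**Figure D5:**
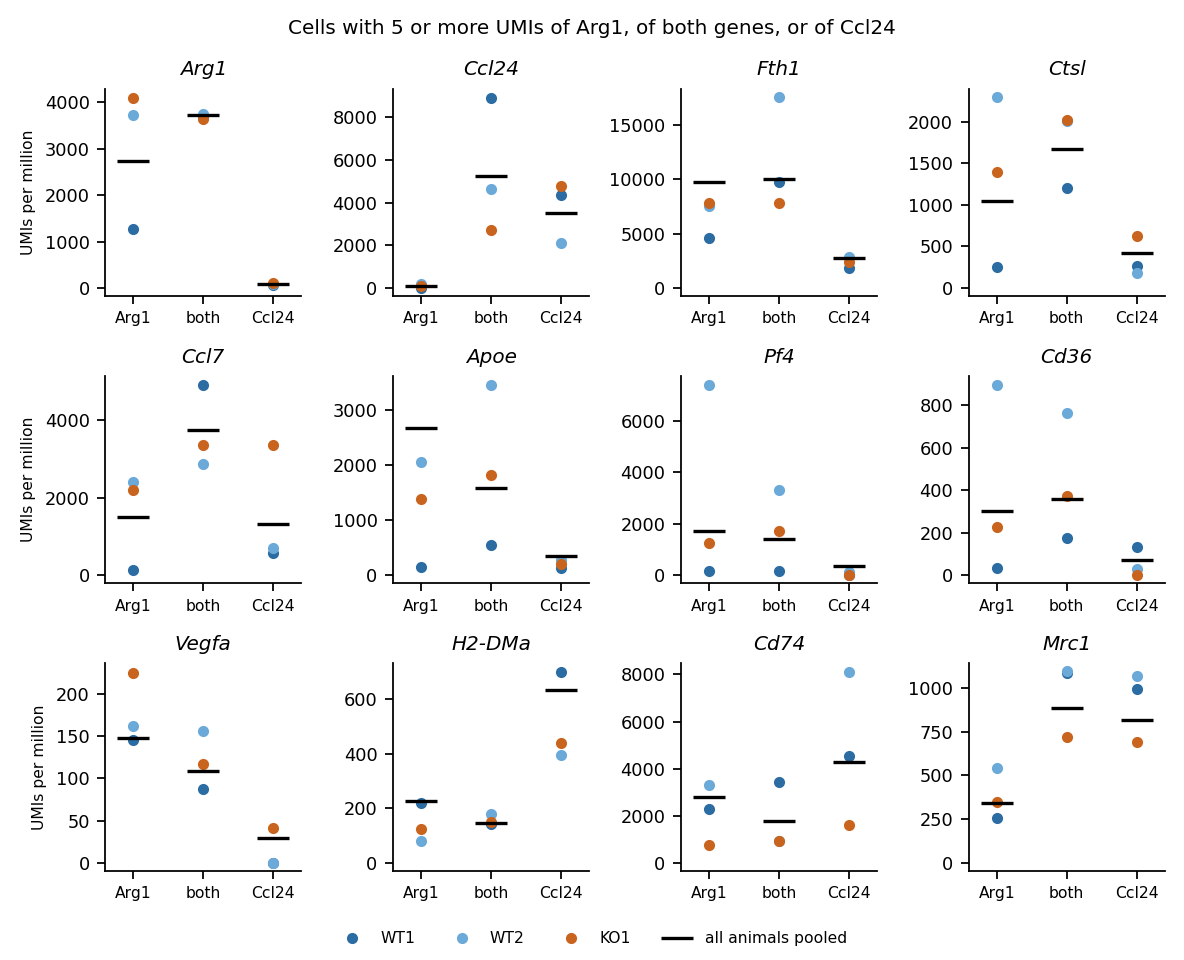
Levels (CPM) of 12 genes in cells with 5 or more UMIs of Arg1 only, of both genes, or of Ccl24 only; points are wild-type animals 1 and 2 and knock-out animal 1, and black dashes pool all animals. Fth1, Apoe and Vegfa are lowest, and H2-DMa and Cd74 highest, in the Ccl24 cells of each animal, for Apoe in wild-type animal 1 by a small gap.

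Whether loss of Il20rb changed the Arg1/Ccl24 monocytes themselves could be tested only with few animals. Knock-out animal 1 alone among the knock-outs held at least 10 of the cells, so animals with at least 5 were used, wild-type animals 1 to 4 and knock-out animals 1 and 4. Of 1649 genes tested by edgeR's quasi-likelihood test, 0 (0%) were higher and 0 lower in knock-out cells, with 49 at an unadjusted p under 0.05, and DESeq2 also called 0. The lowest p belonged to Bst2, the interferon-induced protein tetherin, with 575, 318, 239 and 202 CPM in wild-type animals 1 to 4 and 1087 and 1213 CPM in knock-out animals 1 and 4. Bst2 did not pass (log2 fold, knock-out over wild type, 1.70 ± 0.38 SE, edgeR adjusted p = 0.983). Cd44, the hyaluronan receptor, measured 1196, 1113, 1497 and 962 CPM in wild-type animals 1 to 4 and 636 and 637 CPM in knock-out animals 1 and 4, and Vim, vimentin, 4143, 3514, 5268 and 6517 CPM in wild-type animals 1 to 4 and 3089 and 1941 CPM in knock-out animals 1 and 4. Neither Cd44 nor Vim passed (log2 fold -0.91 ± 0.29 and -0.94 ± 0.29 SE, edgeR adjusted p = 0.983 for each). Bst2, Cd44 and Vim were named for their low p, so a gap between the genotypes goes with that choice. The other genes of lowest p were Slirp, Ranbp1, Aif1 and Ninj1, higher, and Tacc1, Gm42031 and Lmna, lower, all with an edgeR adjusted p of 0.983.

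By list, all 10 tested interferon response genes had a fold above 0 (median log2 0.85, against -0.01 over all genes tested) with 0 called; among them Isg15, a ubiquitin-like antiviral protein, measured 1145, 427, 119.7 and 31.0 CPM in wild-type animals 1 to 4 and 886 and 1153 CPM in knock-out animals 1 and 4, within which the genotypes overlapped. The rule selects on Arg1 and Ccl24, so their levels were not tested between genotypes. Over all 10 animals both genes overlapped between genotypes. In the animals with fewer than 5 such cells, Arg1 measured 2179 CPM in wild-type animal 5. It measured 3442, 761 and 1385 CPM in knock-out animals 2, 3 and 5. Leaving out wild-type animal 1 gave 4 higher genes, and well 1 alone gave 11 higher and 7 lower. An interaction term for whether the genotype effect differed between Arg1/Ccl24 monocytes and other monocytes passed in 0 of 2936 genes by edgeR (0%), with 130 at an unadjusted p under 0.05, and in 0 by DESeq2. It had 2 wild-type animals and 1 knock-out animal, so the spread came from the wild-type animals and was assumed to hold for the knock-out, and these counts say nothing about whether the effect differs between the classes.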

How the data were processed

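Immune cells of 10 mice were measured by 3′ single-cell RNA sequencing with hashtag antibodies. The authors deposited UMI counts for 6054 cells and 32285 genes, already filtered: UMIs per cell ran from 1000 to 52182, no cell had fewer than 501 genes, and mitochondrial UMIs reached 9.99%, and 32158 gene IDs matched a table of gene names. Cell Ranger 6.0.1, R 4.0.5 and the build mm10 are named, without roles, per the submitters' processing notes. The strand setting, the annotation and the calling of hashtags and doublets were not given in the sources used here; no doublet caller was run; cells with UMIs of another lineage are counted in the results. Animals were taken from the hashtag in the cell names, 5 per genotype; whether the animals were littermates is not given.

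UMI counts were summed per animal and cell class. Genes were tested with edgeR 4.0.16 (TMM, filterByExpr, robust quasi-likelihood fit) in R 4.3.3, for animals with at least 10 cells of each class, with the animal as a block between classes, leaving out the 15 genes of the rule, and Benjamini-Hochberg adjustment over all genes tested; a gene was called at an adjusted p under 0.05. The genotype comparison within the Arg1/Ccl24 monocytes could not be fitted at 10 cells, so the fit with at least 5 cells is reported. Each fit borrows the spread between animals across genes. Shares were compared by exact permutation of animals (scipy 1.17.1, two-sided), with exact Clopper-Pearson 95% intervals for counting error. DESeq2 1.42.0, no filter, other thresholds, depths, wells and cell minimums, and each animal left out, were the alternatives. The fits were tested on simulated data. Named are up to 15 genes per direction of lowest p among those called, changed at least 2-fold and the same way in every animal; where fewer than 5 passed, the 5 of lowest p; and genes of 16 fixed lists. The members and lists were chosen with earlier results of these data known. Promoters and gene positions come from the RefSeq tables of GRCm38.p6; all 7 genes searched were in the promoter table. 1 gene of the monocyte identity list is not reported here.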

Additional observations from a re-analysis of the deposited data

Results flagged for a closer look

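In 6 of the 39 groups of animals examined (8 of shares, 31 of single genes), 1 animal stood farther from the others than Dixon's 95% critical value allows; chance alone gives about 1 in 20. All 6 were gene levels in Arg1/Ccl24 monocytes of the 4 wild-type animals with at least 5 such cells. Wild-type animal 1 stood above the others for Tgm2, at 1106 CPM, and for the proteoglycan gene Sdc4, also at 1106 CPM. Wild-type animal 4 stood apart for Tmem176b, at 233 CPM. Wild-type animal 3, with 6 such cells, stood apart for Gpr141 at 159.7 CPM, for Gngt2 at 159.7 CPM and for Gm9733 at 0 CPM. Depth per animal in these cells, 3777 to 287836 UMIs over all 10 animals, differs between animals, and its part in these values was not tested.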

How the results depend on the processing

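No paired analysis was possible because, between the genotypes, animal numbers pair nothing and each well holds every animal; comparisons of cell classes within an animal had the animal as a block. Against the other monocytes (89 higher, 58 lower), DESeq2 called 34 higher and 1 lower, the fit without the animal as a block 42 and 18, cells of 5000 to 20000 UMIs 20 and 1, well 1 alone 47 and 23 and well 2 alone 23 and 5. There the lower genes alone moved past 1.5 times with a minimum of 20 cells (34), a threshold of 10 (30) and the fit that was not robust (30). Leaving out each animal gave 0 to 84 higher and 0 to 52 lower. Against the interferon monocytes (31 and 142), DESeq2 called 8 and 64, no filter 60 and 237, a minimum of 20 cells 5 and 39, and leaving out each animal 1 to 71 and 2 to 221. Against the C1q macrophages (22 and 19), DESeq2 called 5 and 6, no filter left 34 lower, a minimum of 20 cells 8 higher, and leaving out each animal gave 8 to 25 higher and 22 to 57 lower. The cause of these changes was not tested, except that leaving out animals leaves fewer samples. For the difference of the genotype effect, no filter gave 1 higher and 1 lower gene; leaving out an animal, or a minimum of 20 cells, could not be fitted. Within the Arg1/Ccl24 monocytes (0 and 0 between genotypes), no filter gave 1 higher, a threshold of 10 gave 1 lower, cells of 5000 to 20000 UMIs 1 lower, well 1 alone 11 and 7, well 2 alone 1 higher, and leaving out each animal 0 to 4 higher. The share among all cells kept its direction (knock-out lower) with each animal left out, from -1.001 to -0.211 percentage points, and within the gate from -11.3 to -2.90; counting in interferon cells past the threshold, chosen after seeing the data, turned the first to 0.729. Of the 30 named genes of each comparison of classes, 0, 2 and 4 kept their call under every alternative run (other monocytes, interferon monocytes, macrophages) and 0 changed direction. The alternatives share cells and animals with the main fit, so the kept directions are no separate support. Few cells limit the rest: 30 of the 101 cells lie in animals outside the test.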
